A study of Mus musculus with 6 samples.

Results

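Olfm4-rich and Olfm4-poor spots were the 20% of spots at the 2 ends of a ranking by Olfm4 within each section of DES-exposed uterus. The spots were chosen by their Olfm4 UMIs (unique molecular identifiers, each standing for 1 captured transcript) over all their UMIs, ranked within the section, and ties were taken in file order. The ranking gave 315 rich and 315 poor spots of 1575 in section DES A, and 271 rich and 271 poor spots of 1357 in section DES B. Together these were 586 rich and 586 poor spots of the 6199 spots measured in 4 sections. Because Olfm4 chose the spots, its values are given as a description, and it was left out of every test.

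All mice were of the CD-1 strain and 12 months old. They had received corn oil (CO) or diethylstilbestrol (DES), a synthetic estrogen, at 1 mg/kg/day from day 1 to day 5 of life. The 2 CO and 2 DES sections each came from 1 mouse, and 1 library of dissociated uterine cells per condition was pooled from several mice. DES mice were in persistent estrus and CO mice were taken in estrus, and the DES blocks had been picked for adenocarcinoma and cored to it, so that the DES spots describe a selected region of 2 uteri. A spot takes up RNA from several neighbouring cells, and fewer cells of a type in a spot cannot be told apart from less RNA per cell.

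Olfm4 encodes olfactomedin 4, a secreted glycoprotein. It is best known as a marker of the epithelium at the base of intestinal crypts, as a gene that responds to inflammatory NF-kB signaling, and as a granule protein of some neutrophils. In the mouse uterus, simple columnar epithelium lines the lumen and glands, while basal and squamous epithelia with keratins such as Krt5, Krt14 and Krt13 are normally features of the lower reproductive tract.

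Olfm4 lies on chromosome 14 of GRCm38 (mm10) at 79984081 to 80023139 on the plus strand. Levels are given in CPM, the UMIs of a gene scaled to a total of 1000000. Olfm4 stood at 1534 CPM in DES A (95% exact Poisson interval 1509 to 1560) and at 1340 in DES B (1317 to 1363). In the control tissue it was near absent, with 5 UMIs in CO A (0.400 CPM) and 24 UMIs in CO B (2.18 CPM). These intervals cover counting error only. Of the DES A spots 66.5% held an Olfm4 UMI, and of the DES B spots 74.1%. The rich spots held 66.0% of the Olfm4 UMIs of DES A and 58.2% of those of DES B.

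The rich spots ran from 1976 to 11289 Olfm4 CPM in DES A and from 1876 to 10237 in DES B, and the first spots outside them had 1972 and 1873. Every poor spot had no Olfm4 UMI, and since 527 spots of DES A and 351 of DES B had none, file order chose among them. Depth moved with the ranking. The median rich spot held 8184 UMIs in DES A and 8623 in DES B, and the median poor spot held 2012 and 1935. Only 13 rich spots of DES A and 4 of DES B rested on 1 Olfm4 UMI.

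**Figure D1:**
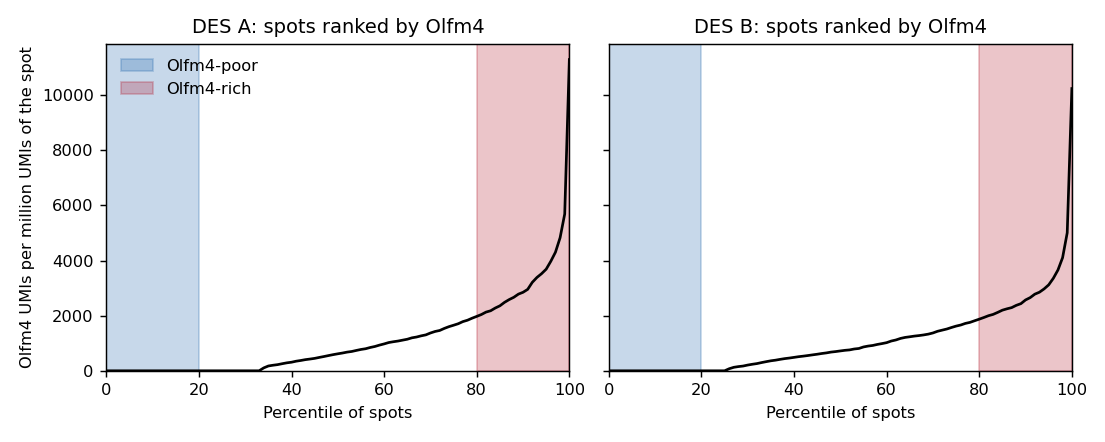
Olfm4 CPM of a spot (vertical axis) against the percentile of spots in DES A and DES B (horizontal axis), with the poor 20% shaded in blue and the rich 20% in red. The curve stays at 0 through the poor spots in both sections and rises from 1976 (DES A) and 1876 (DES B) at the lower edge of the rich spots.

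The first question was which other transcripts lay in the spots that held Olfm4. Rich spots carried epithelial, basal and squamous transcripts, and poor spots carried those of smooth muscle, vessels, plasma cells and blood. UMIs were summed over the spots of each group and compared with edgeR's quasi-likelihood test, with the section as a block. Of 11315 genes tested, 1331 were higher in rich spots (11.8%) and 1685 were lower (14.9%) at a Benjamini-Hochberg adjusted p under 0.05, 26.7% in all. The replicates are the 2 sections and not the spots, and an exact paired test over 2 sections cannot go below p = 0.5, so each p-value borrows its measure of spread from the other genes. With DESeq2 in place of edgeR 1417 genes passed, and with every spot thinned to 2000 UMIs 1345 of 7406 did.

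Levels below are CPM of the UMIs summed over a group, with Olfm4 left out of the total. Krt6a, a keratin of stratified epithelium, stood at 1213 in the rich and 44.3 in the poor spots of DES A and 471 and 18.9 in those of DES B. Krt13, a keratin of mucosal squamous epithelium, stood at 924 in the rich and 55.1 in the poor spots of DES A and 734 and 49.98 in those of DES B. In both sections the rich level lay far above the poor one, by 23.7-fold for Krt6a (log2 difference 4.57 ± 0.26 SE, edgeR adjusted p = 5.71e-07) and by 14.0-fold for Krt13 (3.81 ± 0.24 SE, adjusted p = 1.07e-06). Krt6b, the neighbour and close relative of Krt6a, rose 43.7-fold (adjusted p = 1.09e-06). Reads can be shared between these near-identical keratins, and also among Sprr2d, Cyp4a12b or the immunoglobulin genes and their relatives, so the share of each copy is uncertain.

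The 12 largest rises held other genes of squamous and secretory epithelium. Sprr2d, a precursor of the cornified envelope, rose 39.2-fold, and Spink5, a protease inhibitor of squamous epithelium, rose 24.4-fold. Cxcl5, a chemokine that attracts neutrophils, stood at 729.8 in the rich and 13.2 in the poor spots of DES A and 144 and 5.40 in those of DES B, and rose 40.9-fold (adjusted p = 1.01e-06). Both rich groups were above both poor groups, and the rich level in DES A was several times that in DES B. Akr1c18, which breaks down progesterone, rose 57.4-fold from 2.40 and 1.35 in poor spots to 95.8 and 165 in rich spots of DES A and DES B. The others were Sptssb, a subunit of the enzyme that starts sphingolipid synthesis, Wfdc18, a small secreted protein of the whey acidic protein family, Psca, a surface antigen of epithelium, Cyp4a12b, a fatty acid hydroxylase, and Itln1, a lectin that binds microbial sugars. Their rises lay between 17.9-fold (Itln1) and 33.0-fold (Sptssb). Several poor levels, among them those of Akr1c18, Krt6b, Sprr2d, Sptssb and Psca, rested on few UMIs. Psca stood at 0 in the poor spots of DES A. The sizes of these rises are therefore uncertain.

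The 12 largest falls were mostly genes of other tissues. Actg2, an actin of smooth muscle, stood at 28.9 in the rich and 1333 in the poor spots of DES A and 62.9 and 1390.0 in those of DES B, and was 35.2 times higher in poor spots (log2 difference -5.14 ± 0.29 SE, adjusted p = 5.62e-07). Pcp4, a calmodulin-binding peptide that is abundant in uterine muscle, was 53.1 times higher in poor spots, and Synm, a filament protein of muscle, 37.1 times. Ccl21a, a chemokine of lymphatic vessels, fell from 987 and 759 in poor spots to 35.8 and 10.5 in rich spots. Ighg2b, an antibody heavy chain, fell from 671 and 2950.3 to 7.59 and 63.3. Hemoglobin genes Hba-a1 and Hbb-bs, the adipocyte gene Cfd, the caveolar gene Sdpr, and Tpbgl, Sh3bgr and RP23-375N21.2 made up the rest, at log2 differences from -4.98 (RP23-375N21.2) to -8.81 (Cfd). Cfd stood at 0.362 in the rich spots of DES A and 0 in those of DES B, so the size of its fall is uncertain.

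The lists of cell type markers, chosen with earlier results of these data known, showed the same division. Some members had been named above, such as Krt6a and Krt13 (squamous), Actg2 (muscle) and Ighg2b (plasma and B cells). The lists are therefore not separate evidence. All 9 general epithelial genes rose, with a median log2 difference of 1.80, where the median over all tested genes was 0.03. Of the 12 basal epithelial genes 11 rose and 1 (Dst) fell, with a median of 2.20. Of 18 squamous genes 11 were tested and 9 rose, with a median of 3.01. All 12 smooth muscle genes fell (median -4.32), as did all 9 endothelial genes (median -3.89) and 10 of 11 plasma and B cell genes tested (median -4.10). Of 15 stromal genes 12 fell. The MHC class II genes, which mark antigen-presenting cells, gave 0 calls of 7 and a median of 0.00.

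Summed levels gave the size of this division. The 9 epithelial genes together held 5969.8 CPM in rich and 2523 in poor spots of DES A, and 6559.9 and 1175 in those of DES B. The smooth muscle genes held 1440.5 in rich and 26164 in poor spots of DES A, and 2023 and 32972 in DES B. Epithelial content thus differed between rich and poor spots, and the differences above cannot be told apart from it. In the authors' clustering of spots, 60.6% of the rich spots of DES A lay in 1 cluster that held no poor spot, and 27.7% of those of DES B lay in another such cluster. These clusters held 332 of the 1575 spots of DES A and 106 of the 1357 of DES B. A further 22.9% and 24.7% of the rich spots of DES B lay in clusters with 0 and 1 poor spots.

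**Figure D2:**
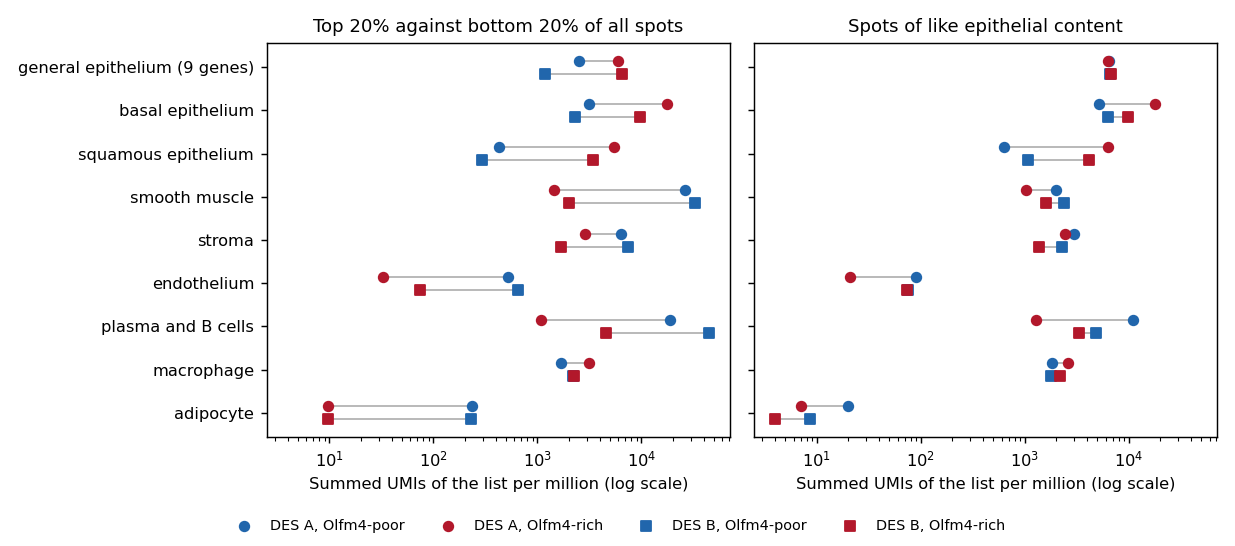
Summed CPM of 9 marker lists (horizontal axis, log scale) in Olfm4-rich (red) and Olfm4-poor (blue) spots of DES A (circles) and DES B (squares). On the left, for all spots, epithelial lists lie to the right in rich spots and muscle, vessel, plasma cell and adipocyte lists in poor spots; on the right, for spots of like epithelial content, the general epithelial sums nearly coincide while the basal and squamous sums stay apart.

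The middle of the ranking had not entered this comparison. When all spots of a section were cut into 5 equal groups by Olfm4 share, 10 of the 12 named rises climbed at every step in both sections, and 9 of the 12 named falls dropped at every step in both. For all 12 and 12 the fourth group lay beyond the second in the direction of the test. The ends of the ranking had chosen these genes, so the order of the first and last groups was fixed. The share of all genes with a steady order was not counted. In DES A 527 of 1575 spots and in DES B 351 of 1357 had no Olfm4 UMI. File order alone therefore parted some spots of the second group from the first. Krt13 climbed in DES A through 55.1, 99.0, 239, 404 and 924 CPM, and in DES B through 49.9, 155, 276, 422 and 734. Cxcl5 behaved otherwise. It stood in DES A at 13.2, 8.86, 39.0, 124 and 729.8, and in DES B at 5.39, 4.15, 18.6, 36.5 and 144, so that most of its rise fell in the top group. Actg2 dropped in DES A from 1333 through 679, 131 and 61.5 to 28.9, with its largest steps in the lower groups.

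**Figure D3:**
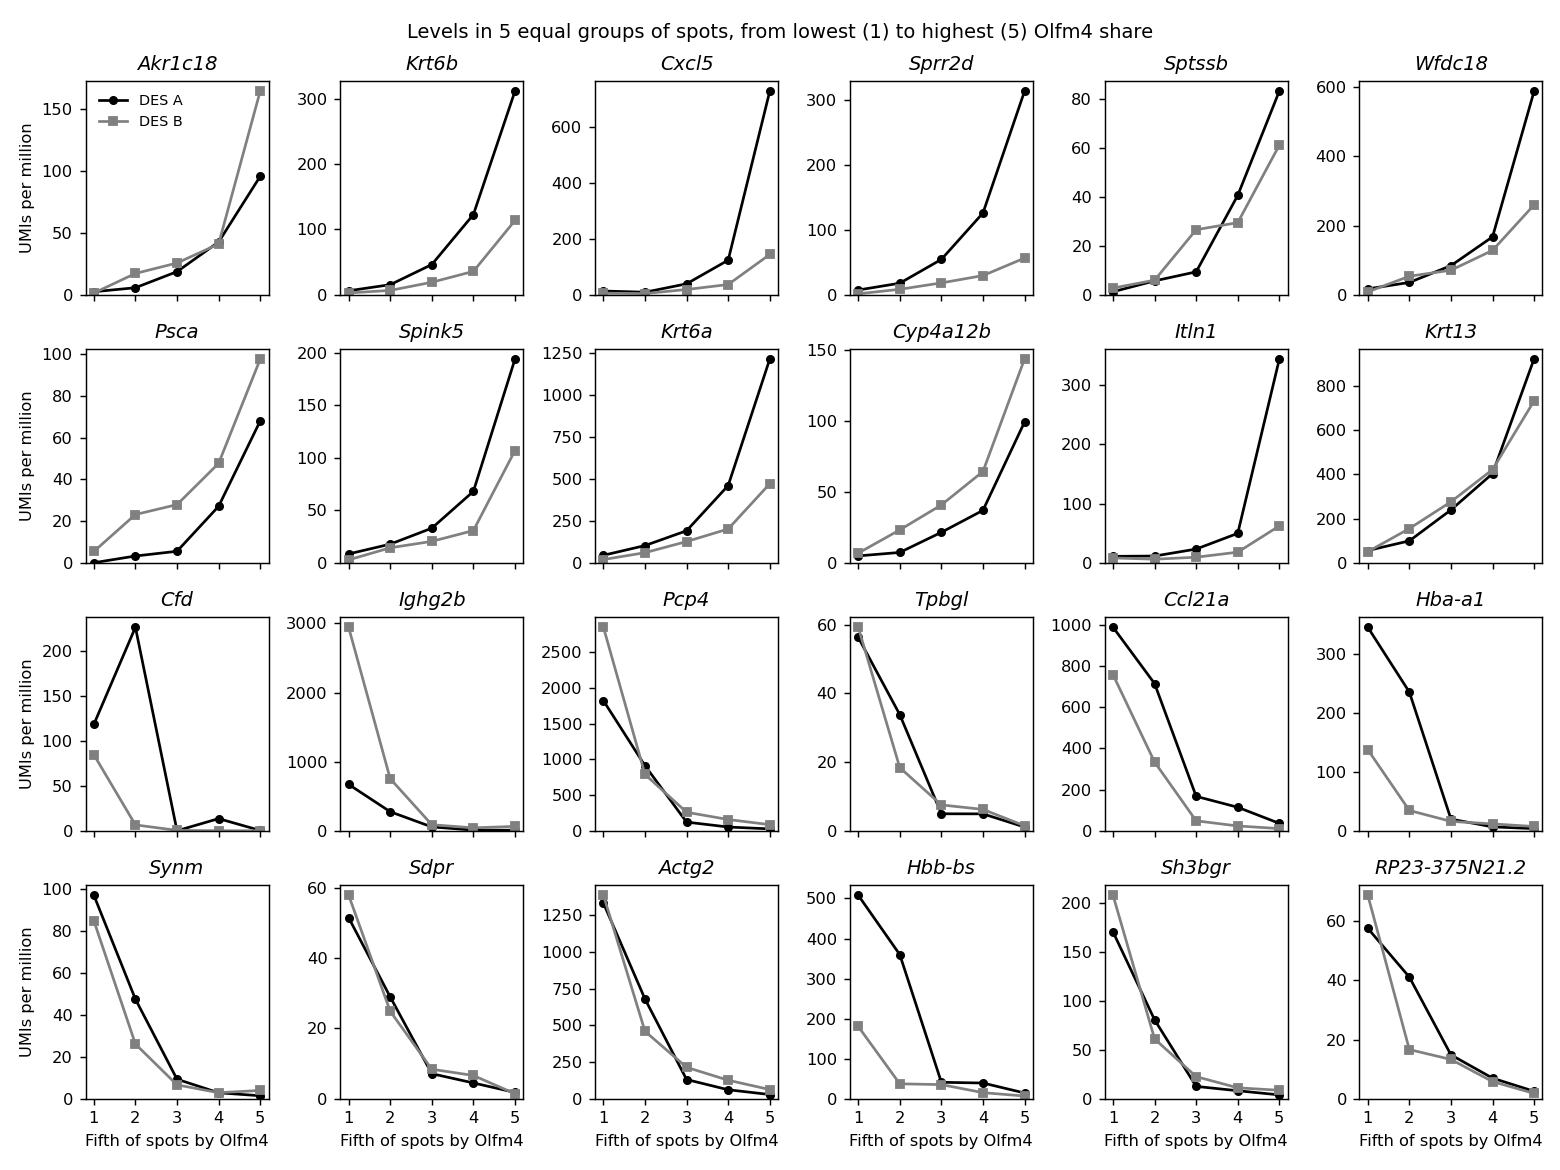
CPM (vertical axis) of the 12 named rises (upper 2 rows) and 12 named falls (lower 2 rows) in 5 equal groups of spots from the lowest to the highest Olfm4 share (horizontal axis), in DES A (black circles) and DES B (gray squares). Cxcl5 stays low up to the third group and reaches 729.8 in DES A and 144 in DES B in the fifth, while Actg2 drops most between the first and the third group.

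To ask what set Olfm4-rich epithelium apart from other epithelium of the same sections, spots of like epithelial content were compared. The 50% of spots with the larger share of the 9 general epithelial genes were divided by that share into 5 strata, and the top and bottom 20% by Olfm4 were taken in each. This gave 155 rich and 155 poor spots in DES A and 135 of each in DES B, and the summed genes of the score, alike by this choice, came to 6264 in rich and 6478 in poor spots of DES A and to 6712 and 6657 in DES B. The 16 epithelial genes outside the score were higher in rich spots, at 6385 and 5202 in DES A and 6627 and 5669.8 in DES B, so the match in epithelial content was not complete. All of these rich spots were also among the rich spots above, so the 2 comparisons share data. The poor spots here held 113 and 313 Olfm4 CPM in DES A and DES B, against 3899 and 3159 in the rich spots. The groups also differed in the authors' clusters, more so in DES A than in DES B. In DES A cluster 1 held 110 rich and 4 poor spots and cluster 2 held 1 rich and 87 poor spots. In DES B cluster 7 held 51 rich and 2 poor spots, and clusters 3 and 6 held 3 and 19 and 5 and 24. Clusters 1, 2 and 4 of DES B held near equal numbers, at 22 and 27, 35 and 37, and 19 and 20. The depth of the rich and poor spots still differed, with medians of 9946 and 10345 UMIs in rich and 4116 and 4475 in poor spots.

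Within spots of like epithelial content, squamous, basal and mucous genes remained higher where Olfm4 was high, and Cfi, Wnt7a, Anpep and Sox17 were among the genes that were lower. Of 10180 genes tested, 745 passed (7.32%), of which 451 were higher (4.43%) and 294 lower (2.89%) in rich spots. These calls rest on the block for the section. Without it 0 genes passed (1325 at an unadjusted p under 0.05), and DESeq2 with the block called 47 (376 unadjusted). Of the 24 named genes DESeq2 kept 10, which were Cxcl5, Krt6b, Krt6a, Sprr2d, Akr1c18, Psca, Cfi, Pcp4l1, Sox17 and Plekhs1, and not Wnt7a, Anpep, Itln1, Muc5b or Tff1. Of 87 called list members outside the 24 named genes, it kept 9, which were Krt13, Sprr1a, Dmkn, Nccrp1, Lgals7, S100a8, S100a9, Ltf and Lypd8, so that of the basal genes described below it called Lgals7 alone and of the mucosal genes Ltf and Lypd8.

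Krt6a stood at 1452 in the rich and 59.6 in the poor spots of DES A and 577 and 95.9 in those of DES B, and the matched difference was 11.7-fold (log2 difference 3.55 ± 0.26 SE, adjusted p = 1.96e-11). The rich spots were above the poor spots in both sections. Cxcl5, at chromosome 5, 90759360 to 90761624, showed the largest rise. It stood at 835 in the rich and 4.96 in the poor spots of DES A and 172 and 5.39 in those of DES B, 85.5-fold higher in rich spots (log2 difference 6.42 ± 0.32 SE, adjusted p = 1.70e-15). The poor levels of the sections were alike and rested on few UMIs, so the size of the fold is uncertain. The rich level of DES A was above that of DES B. Itln1 rose 51.4-fold, with 519 in the rich spots of DES A and 55.8 in those of DES B.

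Of the 18 squamous genes 11 were tested, and of these 7 rose and 0 fell, with a median log2 difference of 2.0 where all tested genes had -0.01. Sprr1a, a cornified envelope precursor, stood at 3219 in the rich and 306 in the poor spots of DES A and 2325 and 571 in those of DES B (log2 difference 2.70 ± 0.19 SE, adjusted p = 9.13e-12). Krt13, Dmkn (dermokine, secreted by stratified epithelium), Dsc3 (a desmosomal cadherin), Nccrp1 and Sbsn rose beside it, at log2 differences of 2.67, 3.84, 2.91, 2.0 and 1.27. Krt1 and Krt10, keratins of the cornifying epidermis, gave 0.03 and 0.16 and did not pass.

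Of the 12 basal genes 9 rose, with a median of 0.86. Krt14 stood at 7113 in the rich and 1308 in the poor spots of DES A and 2646 and 1516 in those of DES B, and Krt5 at 7543 in the rich and 2288 in the poor spots of DES A and 4700.5 and 2852 in those of DES B. For both genes the 4 values separated rich from poor within and across sections, though by less in DES B, where the rich level was under 2 times the poor one. Trp63, the transcription factor of basal epithelium, differed by 0.81 ± 0.23 SE (adjusted p = 0.0233), and no longer passed under 7 of the alternatives to the test and the cuts. Krt15, Col17a1, Lgals7, Sfn and Aqp3 also rose, and the basal integrins gave 0.45 (Itgb4) and 0.14 (Itga6) and did not pass.

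Secreted mucosal genes made up a second group. Of 30 listed, 17 were tested, 9 rose and 1 (Lypd8) fell, with a median of 0.54. Ltf, whose levels are given below, was among the 9. Muc5b, a gel-forming mucin, stood at 935 in the rich and 39.7 in the poor spots of DES A and 234 and 79.7 in those of DES B. Tff1, a trefoil peptide secreted with mucus, stood at 781 in the rich and 47.2 in the poor spots of DES A and 1937 and 469 in those of DES B. Both were higher in the rich spots of each section, by 7.81-fold and 7.35-fold, and Muc5b was highest in DES A while Tff1 was highest in DES B. Spdef, a transcription factor of mucus-secreting cells, and Agr2, a chaperone for mucins, rose 5.32-fold and 4.26-fold. Pigr, which carries antibodies across epithelium, Muc1, Muc5ac and Clu rose by log2 differences from 0.48 (Muc1) to 1.65 (Muc5ac). Lcn2, an iron-binding defense protein, gave -0.08 ± 0.12 SE and did not pass.

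**Figure D4:**
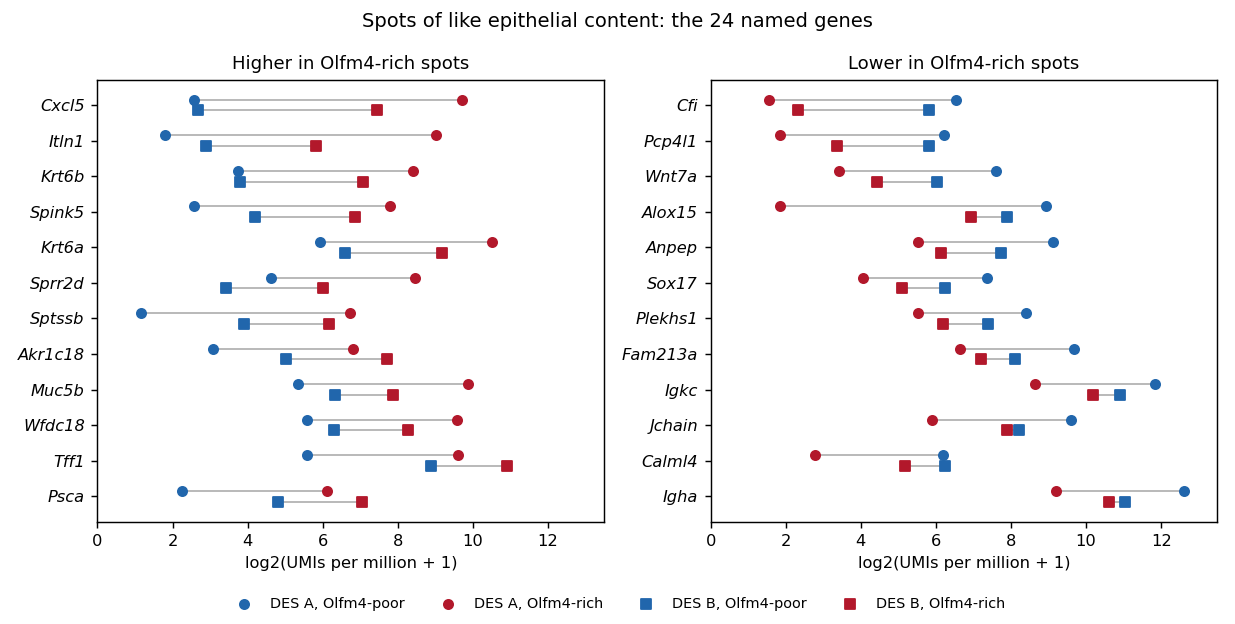
log2(CPM + 1) (horizontal axis) of the 12 largest rises (left) and 12 largest falls (right) in Olfm4-rich (red) and Olfm4-poor (blue) spots of like epithelial content, in DES A (circles) and DES B (squares). The genes were chosen to have 1 direction in both sections, and the gap is narrow in DES B for Jchain (236 in rich, 298 in poor spots) and Igha.

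The largest falls included genes of the uterine lining. Wnt7a, a Wnt ligand of uterine luminal epithelium (chromosome 6, 91363981 to 91411363), stood at 9.70 in the rich and 192 in the poor spots of DES A and 20.6 and 64.6 in those of DES B (log2 difference -2.95 ± 0.33 SE, adjusted p = 1.93e-07). Sox17, a transcription factor needed for uterine glands, stood at 15.5 in the rich and 164 in the poor spots of DES A and 33.2 and 74.3 in those of DES B (log2 difference -2.22 ± 0.30 SE, adjusted p = 4.02e-06). Anpep, a surface peptidase of columnar epithelium, stood at 44.6 in the rich and 557 in the poor spots of DES A and 69.0 and 213 in those of DES B. Each of the 3 was lower in the rich spots of both sections, as the naming rule required, with the wider gap in DES A. In the comparison of all spots none of them passed. Their log2 differences there were -1.36 (Wnt7a), -0.93 (Sox17) and -1.24 (Anpep), with edgeR adjusted p = 0.109, 0.150 and 0.057. Cfi, the plasma protease that inactivates C3b, was 23.7 times higher in poor spots, at 91.8 and 54.9 in poor and 1.94 and 3.98 in rich spots of DES A and DES B. C3, the estrogen-responsive complement component that Cfi acts on, also fell (log2 difference -1.56 ± 0.21 SE, adjusted p = 4.98e-06). Alox15, a lipoxygenase, fell from 489 to 2.59 in DES A and only from 236 to 122 in DES B, and it no longer passed when 33.3% in place of 20% of the spots were taken. It did not pass in the comparison of all spots either (edgeR adjusted p = 0.315).

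The uterine gland genes did not move as 1 group. Foxa1, a pioneer transcription factor, and Cxcl15, a chemokine made by uterine glands, rose by log2 differences of 2.11 and 3.07, Sox17 fell, and Foxa2, the factor that defines uterine glands, gave 0.26 ± 0.29 SE and did not pass. Transporters of epithelium moved in both directions. Of 9 solute transport genes tested 4 fell, among them the water channel Aqp5 (-0.86) and the carbonic anhydrase Car2 (-1.31), and 2 rose, the sodium channel subunit Scnn1a (1.38) and the phosphate carrier Slc34a2 (0.66).

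RNA of other cell types also differed between these spots. Plasma cell genes Igha, Igkc and Jchain were among the largest falls, and Igha stood at 591 in the rich and 6195 in the poor spots of DES A and 1569.7 and 2089.9 in those of DES B. The gap was wide in DES A and narrow in DES B. Of 9 plasma and B cell genes tested 5 fell, and their sum was 1297 in rich and 10963 in poor spots of DES A and 3339.9 and 4879 in DES B. Of 12 muscle genes 10 fell, of which Acta2 and Tagln turned to 0.036 and 0.20 when the strata were made from other epithelial genes, with sums of 1032 and 2003 in DES A and 1614 and 2399 in DES B. Transcripts of mitochondrial DNA came to 10363 in rich and 7524 in poor spots of DES A and to 12381 and 8619 in DES B, and those of cytosolic ribosomal proteins to 151505 and 178549 and to 159764 and 179444. The part of depth, of these cells and of RNA content in the epithelial differences was not tested. With spots thinned to 2000 UMIs 127 of 4564 genes passed, among them 20 of the 24 named genes, and the other 4 (Sptssb, Cfi, Pcp4l1 and Calml4) fell below the filter. With strata also cut by depth, an alternative chosen after the data were seen, 591 genes passed, among them 22 of the 24.

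Since neutrophils can carry Olfm4, their genes were set beside it. S100a8 and S100a9, calcium-binding proteins of neutrophils that squamous epithelium also makes, rose by 5.07 ± 0.39 and 5.28 ± 0.34 SE in matched spots (adjusted p = 6.59e-11 and 1.74e-12). S100a9 stood at 473 in the rich and 8.69 in the poor spots of DES A and 37.2 and 3.23 in those of DES B, so that its level in rich spots of DES A was over 10 times that in DES B. Of 4 neutrophil genes tested in matched spots 3 rose (Ltf was the other). In the comparison of all spots, 15 of the 18 genes listed had a higher level in the rich spots of DES A and 11 of 18 in those of DES B, and 9 had no UMI in the poor spots of either section. The rich sums were far deeper, with 2765065 UMIs against 834463 in DES A and 2765742 against 740265 in DES B. Some genes counted as higher rest on few UMIs, such as Ly6g and Mmp8 with 1 against 0 in each section. The share of all genes that were higher was not counted, so these counts alone do not show enrichment. In the rich and poor spots of that comparison in DES A, Il1b had 298 and 3 UMIs, Clec4d 42 and 0, Trem1 28 and 0 and Cxcr2 18 and 0. In DES B the same 4 genes had 23 and 2, 4 and 0, 3 and 0, and 0 and 0. Camp and Ngp, granule genes of immature neutrophils, had none in any of these spots, and Ly6g had 1 UMI in the rich spots of each section. Csf3r had 98 UMIs in the rich and 3 in the poor spots of DES A, and 16 and 5 in those of DES B, and did not pass (adjusted p = 0.107). The summed list was dominated by Ltf and Lcn2, which uterine epithelium also makes. Over all spots it came to 11116 in rich and 2237 in poor spots of DES A and 3700.3 and 662 in DES B. In matched spots it came to 12275 and 5215 in DES A and 4288 and 3047 in DES B, and its part in the differences was not tested.

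Genes of NF-kB signaling and inflammation rose in part. Of 17 tested in matched spots 5 rose and 0 fell, with a median of 0.55. They were Cxcl5, Cxcl3, another neutrophil chemokine, Nfkbiz (1.02), an NF-kB co-regulator, Tnfaip2 (0.96) and the alarmin Il33 (0.55). Nfkb1, Rela and Nfkbia gave 0.42, 0.29 and 0.06 and did not pass.

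The study relates the Wnt and PI3K/AKT pathways to the DES cancers. Of 15 Wnt ligands and receptors tested in matched spots 0 rose and 3 fell (Wnt5a, Wnt7a and the receptor Fzd10), 20% lower where 2.89% of all genes were, with a median of 0.18. Of 12 Wnt target genes 2 rose (Cd44 and Nkd2) and 1 fell (Tnfrsf19). Nkd2 turned to -0.13 after thinning, and Cd44 was lower in single cells with Olfm4, as given below. Axin2, the feedback gene most used as a readout, gave -0.81 ± 0.45 SE and did not pass. Of 27 PI3K/AKT genes 1 rose (3.70%, where 4.43% of all genes did). That gene was Pdk1 (log2 difference 2.14 ± 0.35 SE, adjusted p = 7.42e-05), which encodes a kinase of mitochondrial pyruvate dehydrogenase and is distinct from Pdpk1, the kinase that acts on AKT, at 0.36 ± 0.29 SE.

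Among the genes that the study reads as marking DES cancer cells or as lower in them, a list it chose from DES cells, Rad51b and Wnt7a fell in matched spots. Rad51b, a DNA repair gene, stood at 90.6 in the rich and 238 in the poor spots of DES A and 236 and 338 in those of DES B (log2 difference -0.92 ± 0.19 SE, adjusted p = 9.84e-04), lower in the rich spots of both sections. Against all poor spots it was higher instead, at 101.1 in the rich and 81.5 in the poor spots of DES A and 303 and 39.2 in those of DES B (log2 difference 1.38 ± 0.44 SE, adjusted p = 0.0361), but it no longer passed with ties taken in reverse file order (1.09). In single cells Rad51b was higher with Olfm4, as given below. Wnt7a is given above, and Trp53, Pik3r1, Ccnd2, Axin2 and Myc passed in neither comparison of spots.

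Among the remaining lists, Notch3, its target Hes1 and the feedback gene Nrarp rose in matched spots by 1.14, 0.60 and 0.92, 3 of 10 Notch genes tested. Pgr, the progesterone receptor, rose (log2 difference 0.87 ± 0.21 SE, adjusted p = 0.00715), while Esr1, the estrogen receptor, gave -0.18 ± 0.17 SE. Ltf, an estrogen-responsive secreted protein, rose from 3337 and 1259 in poor to 9389.5 and 2723 in rich spots of DES A and DES B. Of 15 cell cycle genes tested 0 rose and 2 fell, the replication helicase Mcm2 (-1.37) and the tubulin Tubb5 (-0.59), with a median of -0.59. Of 22 antioxidant genes Gsta4 rose (1.32), Txnrd1 and Gstm7 fell (-0.88 and -3.11), and the others did not pass. Of 11 estrogen-responsive genes 4 rose and 2 fell. The counts of the other lists in matched spots stand beside 4.43% of all genes higher and 2.89% lower. Among general epithelial genes outside the score 5 of 15 rose and 1 fell, among complement genes Cfb and Cd55 rose and C3 fell of 9, and among lumen genes Krt13 rose and Wnt7a and Gjb2 fell of 4. Krt13 is also in the squamous list, so its rise is counted in both. Other genes are likewise counted more than once, such as Ltf among mucosal, neutrophil and estrogen-responsive genes. Single calls were the rises of Cd14 (11 macrophage genes), Cdkn1a (12 p53 targets), Slc2a1 (18 hypoxia and glycolysis genes) and Notch3 (4 pericyte genes) and the falls of Bst2 (12 interferon genes), Prg2 (1 eosinophil gene) and Wt1 (2 mesothelial genes). Of 13 stromal genes 3 fell, of 9 matrix remodeling genes Spp1 rose and Mmp7 fell (Spp1 turned to -0.26 with strata also cut by depth, and Mmp7 was higher in single cells with Olfm4), of 10 mitochondrial transcripts 6 rose, and of 78 ribosomal protein genes 10 fell. Endothelial, T cell, MHC class II and hemoglobin genes gave 0 calls of 1, 1, 7 and 2, and no adipocyte gene was tested.

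In the comparison of all spots, where 26.7% of all genes were called, 13 of 15 other epithelial genes rose, as did 4 of 6 gland genes and 3 of 5 lumen genes tested, with 1 fall in each of the last pair. Of 20 NF-kB genes 11 rose and 1 fell, of 16 mucosal genes 13 rose and 1 fell, and of 8 neutrophil genes 5 rose. Of 19 Wnt ligands and receptors 2 rose and 4 fell, of 11 Wnt targets 1 rose and 2 fell, and of 29 PI3K/AKT genes 4 rose and 3 fell, so that the shares called of the Wnt target and PI3K/AKT genes were near that of all genes. Notch (5 higher and 1 lower of 11), antioxidant (8 and 4 of 23), solute transport (4 and 0 of 8) and estrogen-responsive genes (4 and 4 of 12) were called more often than that, and p53 target genes (2 and 1 of 12) were not. These lists are short, and their shares were not tested against that of all genes. Of 13 interferon genes 3 rose and 2 fell. Of 10 complement genes 2 rose and 6 fell, of 17 hypoxia and glycolysis genes 2 rose and 5 fell, of 11 matrix genes 2 rose and 4 fell, and of 11 macrophage genes 1 rose and 3 fell. Falls alone were found among pericyte (5 of 6), mesothelial (2 of 3), eosinophil (1 of 1), T cell (1 of 4), hemoglobin (3 of 3), adipocyte (4 of 4), mitochondrial (2 of 10), ribosomal protein (13 of 78) and cell cycle genes (1 of 16).

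Control tissue gave the background for the genes that rose. In the 20% of spots richest in epithelial genes, Krt6a stood at 0.458 CPM in CO A and 13.9 in CO B, against 576 in DES A and 452 in DES B. Muc5b stood at 1.37 and 0 in CO and at 319 and 269 in DES. Muc5b was near absent from both control sections, and Krt6a from CO A. Of the genes lower in Olfm4-rich spots, Anpep stood at 464 and 494 in CO A and CO B and at 226 and 92.5 in DES A and DES B, and Cfi at 91.5 and 87.2 and at 30.9 and 3.31. These levels were not tested between conditions.

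The single-cell libraries showed which annotated cells held Olfm4. The DES library held 24578 Olfm4 UMIs. Non-basal epithelial cells stood at 63.5 CPM (95% exact Poisson interval 62.3 to 64.7, 4772 cells) and basal cells, here the annotated epithelial cells in which Krt14 and Trp63 each had over 1 UMI, at 170 (162 to 178, 483 cells). Mesothelial cells, which should lack the gene, stood at 3.73 (3.27 to 4.23), and Myeloid cells at 3.92 (1.69 to 7.73), so that both epithelial classes lay well above the level in cells of other types. The cells annotated as Lymphocytes stood at 15.4 (9.79 to 23.2), and the same cells held the neutrophil genes S100a8 and S100a9 at 2823 and 3613. The part of neutrophils in this value was not tested. Barcodes without an annotated cell type, 6611 with a median of 2178 UMIs, held 49.0% of the Olfm4 UMIs, at 285 CPM. CO epithelial cells stood at 0.964 (0.760 to 1.21). The 2 libraries shared 180 cell barcodes. With 1 library per condition, pooled from several mice, no test was made, and the intervals cover counting error only.

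Olfm4 was uneven within DES epithelium as well. Of 4604 non-basal cells in the authors' DES epithelial clusters, 279 had at least 5 Olfm4 UMIs and 3606 had none, and 52.7% of the former lay in the authors' cluster 5. That cluster held 295 of the 4604 cells, and the study counts Olfm4 among its top genes, so this overlap is partly built in. Cluster 1, with 536 cells, held another 21.9% of the cells with at least 5. The cells with at least 5 were deeper (median 44162 UMIs against 21198.5). The authors had removed cell doublets with scran, no further doublet call was made, and the part of depth and of remaining doublets was not tested. Of 290 genes called higher in matched Olfm4-rich spots that reached 10 CPM in these cells, 234 (80.7%) were also higher in the cells with Olfm4, where 45.3% of all 7888 tested genes were. Of 230 genes called lower, 88 (38.3%) were higher in the cells with Olfm4.

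Krt5 stood at 452 CPM in cells with at least 5 Olfm4 UMIs (440.2 to 463) and at 34.3 in cells with none (33.3 to 35.4). Cells with over 1 UMI of both Krt14 and Trp63 had been left out, a rule that keeps basal cells with fewer such UMIs. In the same 2 groups Krt14 stood at 22.1 and 6.70 and Trp63 at 0.373 and 0.596. The part of remaining basal cells was not tested. Tff1 stood at 81.0 and 3.1, Wfdc18 at 178 and 19.8, and Cxcl5 at 36.1 and 3.96, so these transcripts were higher in the epithelial cells that held Olfm4 as well as in the spots. Sox17 (164 and 225), Anpep (237 and 415) and Wnt7a (54.7 and 63.3) were lower in cells with Olfm4, by less than in spots. Of the 7888 tested genes at 10 CPM or more in these cells, intervals lay apart for 1637 toward higher and 1870 toward lower levels with Olfm4. Such gaps were thus common, and the intervals cover counting error only. Of the 290 genes called higher in matched spots, 196 lay apart toward higher levels with Olfm4 and 30 toward lower. Of the 230 called lower, 113 lay apart toward lower levels and 75 toward higher. Cells thus matched the falls less well than the rises. Of 111 named genes and list members called in matched spots, at any level, 74 had intervals that lay apart in cells. Of these 74, 56 lay in the direction seen in spots and 18 in the opposite one, most of the 18 being genes lower in rich spots. Of those lower in rich spots, Rad51b stood at 358 in cells with Olfm4 and 85.9 in cells without, Alox15 at 412 and 269, Lypd8 at 218 and 116, and Pcp4l1 at 39.0 and 24.6. Of those higher in rich spots, Pgr stood at 47.2 and 105, Cd44 at 4.92 and 14.0, and Psca at 3.43 and 8.52. The other 11 were Aqp5, Aqp8, Bst2, C3, Gjb2, Mmp7 and Wt1, lower in rich spots, and Cxcl15, Ehf, Il33 and S100a9, higher there. Muc5b, which rose in spots, had 0 UMIs in cells with Olfm4 and 6 in those without, and Muc5ac stood at 0.745 and 1.13, so that neither mucin was higher in cells with Olfm4 and their intervals overlapped. Krt6a and Spink5, prominent in spots, were nearly absent from these cells, at 0.224 and 0.298 CPM where Olfm4 was high, and stood at 3.64 and 22.1 in basal cells. S100a9 stood at 0.522 in cells with Olfm4.

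**Figure D5:**
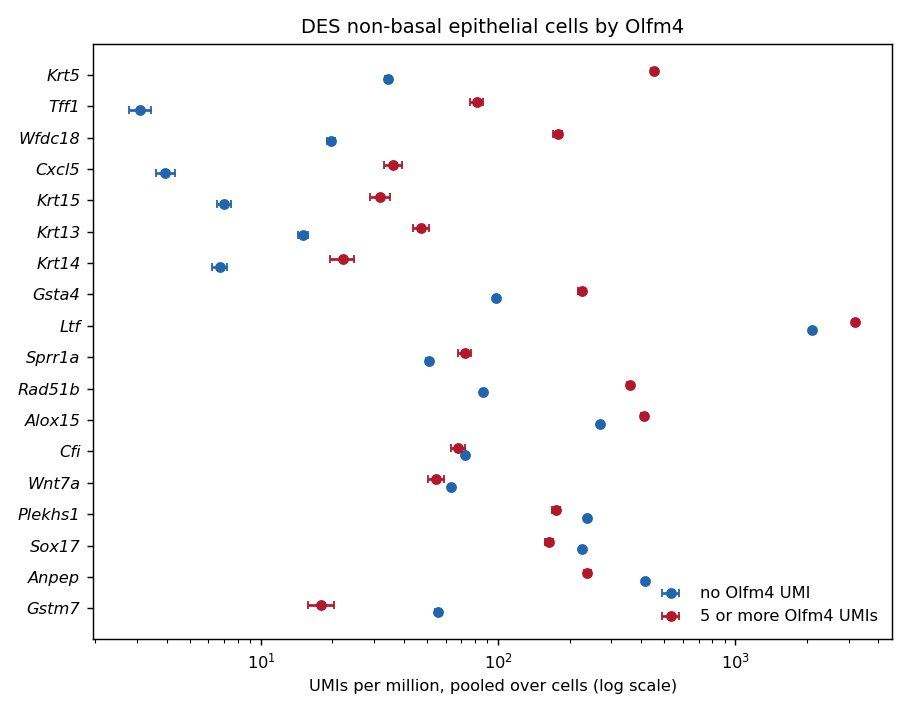
CPM (horizontal axis, log scale) pooled over 279 non-basal DES epithelial cells with at least 5 Olfm4 UMIs (red) and 3606 with none (blue), for 18 genes chosen after their values were seen; bars are 95% exact Poisson intervals and cover counting error only. Among these 18 genes Krt5 and Tff1 show wide gaps toward cells with Olfm4 and Gstm7 and Anpep toward cells without, and the intervals of Cfi overlap.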

How the data were processed

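The authors counted UMIs with Cell Ranger 3.0.1 (cells) and Space Ranger 1.2.2 (spots) on mm10, and deposited them as raw counts. Cell types and clusters are those the authors assigned. Sections held 9117099 to 12506177 UMIs. UMIs were summed per section and group and tested with edgeR 4.0.16 (TMM factors, filterByExpr, quasi-likelihood test, Benjamini-Hochberg adjustment at 0.05) in R 4.3.3. The section was a block because both sums of a section come from 1 mouse. On simulated counts 94% of genes changed by a log2 of 2 and 39% of those changed by 1 were recovered in the comparison of all spots (11217 genes). The simulation changed 100 genes by each amount, with a fixed dispersion and the same effect in both sections. Its rates need not hold for the data, where many more genes were called. The genes named were, by log2 difference, the 12 highest and 12 lowest that passed, had at least 50 CPM in the higher group of both sections and kept 1 direction, and members of 37 gene lists. The values of 1 member are not reported here. Members and lists were chosen with earlier results of these data known. Gene positions are from GENCODE M21. Cell levels are pooled CPM. Alternatives were DESeq2 1.42.0, no block, other scalings, filters, cuts, ties, depths and scores; 4 of them were chosen after the data were seen.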

Additional observations from a re-analysis of the deposited data

How the results depend on the processing

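The count of genes passing for all spots (3016) moved by over 1.5 times with DESeq2 (1417), with thinning to 2000 UMIs (1345, of 7406 tested) and with 33.3% in place of 20% of spots (4600). Under 9 other alternatives it lay between 2522 and 3652, including 2724 without the replicate block. Each of the 24 named genes passed in the same direction in every alternative with a test, except that Cfd was not tested after thinning. The poor group rested on file order; 3003 genes passed with reversed ties (2582 shared) and 3652 with every spot without Olfm4 as poor, a choice made after the data were seen.

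For spots of like epithelial content (745) the count moved to 0 without the replicate block, 47 with DESeq2 (36 higher, 11 lower), 127 after thinning (of 4564 tested), 420 with a score from other epithelial genes and 431 with 33.3% of spots. It lay between 518 and 890 elsewhere. Without the block none of the 24 named genes passed, and with DESeq2 10 did. Igkc, Jchain and Igha were lost with the other score, and they and Alox15 with 33.3%. Among called list members, Acta2 and Tagln turned to 0.036 and 0.20 with the other score, Esrp2 and Nkd2 to -0.052 and -0.13 after thinning, Spp1 to -0.26 with strata also cut by depth, chosen after the data were seen, and Aqp8, at -1.92 without DES A, to 0.65 without DES B. The causes were not tested, beyond the fewer genes and UMIs that thinning leaves. Leaving out either section leaves 1 sum a group and no test, and the named genes had been chosen for 1 direction in both sections. In the simulation changes of a log2 of 1 were often missed, and a gene that did not pass is not shown to be unchanged.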
